A study of Homo sapiens with 9 samples.

Results

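The mitochondrial ribosomal protein genes are the nuclear genes named MRPL (large subunit) and MRPS (small subunit) followed by a number. They were taken by name alone, as every row whose symbol is MRPL or MRPS, a number and an optional letter A to C, which gave 77 of the 26475 rows of the deposited table, 48 named MRPL and 29 named MRPS. By the subunit their proteins occupy, 50 belonged to the large subunit, since MRPS18A and MRPS30 sit there despite their names, and 26 to the small subunit. The remaining row, MRPS36, is now known to encode a subunit of the 2-oxoglutarate dehydrogenase complex (KGD4), and it was kept because the rule names it.

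RNA-seq was done on the human breast adenocarcinoma line MDA-MB-231, which is triple-negative, in 3 groups of 3 libraries. ACSL4 knockdown cells carried a stably transduced pLKO.1-shACSL4 plasmid, PRGL493 cells were empty-vector control cells given PRGL493, an inhibitor of the ACSL4 enzyme, and control cells carried the empty pLKO.1 vector. ACSL4 joins coenzyme A to long polyunsaturated fatty acids. All 9 libraries therefore came from cells that hold the pLKO.1 backbone, 1 hairpin construct and 1 cell line are named, and no dose, exposure time or vehicle of PRGL493 is given. Each library of a group is a separate batch of cells per the series description. The p-values therefore cover variation from batch to batch within 1 engineered population, and not variation between independent transductions.

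The mitoribosome sits in the mitochondrial matrix and makes the few membrane subunits of oxidative phosphorylation that mitochondrial DNA encodes. Its ribosomal RNAs are transcribed inside the organelle, while all of its proteins are encoded in the nucleus, made in the cytosol and imported. Compared with the bacterial ribosome it has lost RNA and gained proteins, so it holds both homologs of bacterial ribosomal proteins and proteins with no bacterial counterpart. By that division 46 members were bacterial homologs, 2 were further paralogs of one and 28 were specific to mitochondria.

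Library totals ran from 28673940 to 43027217 estimated counts, and the members held between 0.250% and 0.326% of a library. ACSL4 itself averaged 27.0 ± 2.95 CPM in knockdown cells, 348 ± 13.7 CPM with PRGL493 and 349 ± 14.8 CPM in control (SD, n = 3 each), CPM being counts scaled by library size and TMM factor. VIM and CD44, which mark this mesenchymal line, ran from 1257 to 1811 CPM over the libraries, ESR1 and PGR lay under 0.2 CPM, and the leukocyte genes PTPRC and CD3E lay under 0.1 CPM. KRT8 and CLDN4, which had been listed as low in this line, were not low, at 337 to 486 CPM and 213 to 288 CPM. ERBB2 ran from 68.1 to 104 CPM, CLDN3 from 6.91 to 10.7 CPM and CDH1 from 0.420 to 2.04 CPM. Of the other genes listed for other cell types, GFAP (glia) ran from 2.75 to 5.89 CPM and PECAM1 (endothelium) from 1.10 to 3.11 CPM. CDH5 (endothelium) reached 0.229 CPM and ALB (liver) 0.175 CPM. Knockdown replicate 2 stood apart by transcript length. Set against each gene's mean over the 9 libraries, the median log2 level there was 0.17 for the 3336 genes with short transcripts (up to 1889 bp) and -0.17 for the 3335 with long ones (over 4587 bp). Elsewhere these medians ran from -0.07 to 0.06. Members had short transcripts, with a median of 1370 bp against 2939 bp for all genes tested, and 61 of 77 had short ones by that limit. The counts of members in the knockdown comparisons are therefore given with and without replicate 2.

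Many nuclear genes for mitochondrial proteins start close to binding sites of the ETS factor GABPA, YY1 or NRF1. RefSeq promoter windows on GRCh38.p14, from 250 bases before to 50 bases after the start, matched 68 of the 77 members. An ETS core, CCGGAAG on either strand, was found in 28 of them (41.2%), against 18.6% of 10371 windows of the other genes tested and 10.7% of all 27305 windows. AAGATGGC, the core of YY1 sites, was found in 20 (29.4%), against 5.15% of the other genes tested and 3.03% of all windows. At least 1 of these motifs was found in 40 of the 68 windows (58.8%) and in 22.5% of the windows of other genes tested, both were found in 8, and matches of the 2 motifs overlapped in 0. The NRF1 core CGCATGCG was found in 3 windows (4.41%, against 3.70% of other genes tested), the GC box GGGCGG in 41 (60.3%, against 69.8%) and the E-box CACGTG in 6 (8.82%, against 10%). A match says that these letters are in the window and not that a factor binds there.

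The promoter windows of 6 members that recur below are shown 5′ to 3′ on the gene's own strand, in lower case, with capitals for CCGGAAG or AAGATGGC or the reverse complement of either. MRPS33 had the smallest adjusted p in knockdown cells and lies on the minus strand (window chr7:141014903-141015202). MRPL20, on the minus strand (chr1:1407244-1407543), was called higher in knockdown cells and holds both motifs. MRPL30, on the plus strand (chr2:99180934-99181233), was called higher in both treatments. MRPL52, on the plus strand (chr14:22829637-22829936), and MRPS18B, on the plus strand (chr6:30617590-30617889), were called higher in knockdown cells and lower with PRGL493. MRPS10, on the minus strand (chr6:42217812-42218111), had the highest level per length.
MRPS33: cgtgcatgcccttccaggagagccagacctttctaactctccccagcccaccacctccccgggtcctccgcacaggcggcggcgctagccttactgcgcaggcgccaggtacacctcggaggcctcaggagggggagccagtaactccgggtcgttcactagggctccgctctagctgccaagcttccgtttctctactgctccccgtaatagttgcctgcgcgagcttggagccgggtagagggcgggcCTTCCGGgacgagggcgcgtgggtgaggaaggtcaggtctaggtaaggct
MRPL20: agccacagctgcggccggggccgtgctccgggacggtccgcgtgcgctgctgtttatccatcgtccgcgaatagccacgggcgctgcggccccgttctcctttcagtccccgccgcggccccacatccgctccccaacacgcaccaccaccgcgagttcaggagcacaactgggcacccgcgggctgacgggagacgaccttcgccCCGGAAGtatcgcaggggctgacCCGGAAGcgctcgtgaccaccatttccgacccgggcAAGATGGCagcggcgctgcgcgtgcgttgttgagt
MRPL30: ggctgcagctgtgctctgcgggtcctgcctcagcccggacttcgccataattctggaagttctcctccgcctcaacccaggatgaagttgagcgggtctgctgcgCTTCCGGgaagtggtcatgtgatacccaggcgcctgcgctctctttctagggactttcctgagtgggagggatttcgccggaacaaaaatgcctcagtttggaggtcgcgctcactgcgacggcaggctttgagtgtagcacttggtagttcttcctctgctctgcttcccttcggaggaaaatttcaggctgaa
MRPL52: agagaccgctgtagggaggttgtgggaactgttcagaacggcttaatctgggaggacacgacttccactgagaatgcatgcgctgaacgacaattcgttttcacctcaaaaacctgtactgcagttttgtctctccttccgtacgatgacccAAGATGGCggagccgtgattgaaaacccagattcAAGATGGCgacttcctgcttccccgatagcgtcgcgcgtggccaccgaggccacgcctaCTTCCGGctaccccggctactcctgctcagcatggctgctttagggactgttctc
MRPS18B: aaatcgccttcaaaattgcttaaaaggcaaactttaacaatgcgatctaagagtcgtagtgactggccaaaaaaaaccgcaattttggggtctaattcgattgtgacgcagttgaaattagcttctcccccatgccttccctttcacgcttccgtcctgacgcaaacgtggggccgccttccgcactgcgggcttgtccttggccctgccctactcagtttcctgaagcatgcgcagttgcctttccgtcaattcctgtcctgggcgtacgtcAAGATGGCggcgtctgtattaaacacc
MRPS10: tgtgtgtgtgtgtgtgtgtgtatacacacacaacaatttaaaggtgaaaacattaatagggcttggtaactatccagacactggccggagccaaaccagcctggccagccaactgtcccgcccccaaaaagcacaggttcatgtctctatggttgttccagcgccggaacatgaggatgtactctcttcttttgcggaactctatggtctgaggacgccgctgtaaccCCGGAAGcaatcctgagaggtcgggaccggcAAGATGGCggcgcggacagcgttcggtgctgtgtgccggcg

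In the MRPS33 window the ETS letters lie within 7 bases after the start, and in MRPL52 they begin 5 bases before it, with a pair of YY1 motifs 98 and 64 bases before it. The YY1 motif begins 16 bases after the start in MRPL20, 24 bases after it in MRPS18B and 10 bases after it in MRPS10. Of the 16 members called higher in knockdown cells that had a window, 8 held the ETS and 6 the YY1 motif, and of the 17 called lower with PRGL493 that had a window, 8 held the ETS and 6 the YY1 motif. Of the 4 called higher with PRGL493 that had a window, 2 held the ETS and 0 the YY1 motif. Among members with no call, the counts were ETS in 20 and YY1 in 14 of 52 in the knockdown comparison and ETS in 18 and YY1 in 14 of 47 in the PRGL493 comparison.

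All 77 members were expressed and passed the filter on low counts, and the smallest count of a member in any library was 157 (MRPS17). Counts per length were unequal although most of these proteins occur as 1 copy per ribosome. In control cells the median was 23.0 CPM per kb of transcript, with the middle members between 12.2 and 32.9 CPM per kb and the highest 27.2 times the lowest. Large and small subunit genes had like medians, 23.1 CPM per kb in each.

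The highest was MRPS10, a small-subunit protein of the head, at 91.3 ± 2.39 CPM per kb in control (SD, n = 3). MRPS24, the counterpart of the bacterial protein at the messenger RNA entry, followed at 82.5 ± 2.66 CPM per kb, and MRPL14, which faces the small subunit, at 62.1 ± 0.904 CPM per kb. MRPS6 stood at 56.2 ± 2.98 and MRPL37, a protein specific to mitochondria, at 54.1 ± 1.16 CPM per kb. These 5 do not all keep apart, since the SDs of MRPS6 and MRPL37 overlap. The MRPS6 count is uncertain because the gene shares exons with SLC5A3, and MRPS24 shares exons with the readthrough locus URGCP-MRPS24. In the same order, without scaling for length, the CPM of these genes in knockdown, PRGL493 and control cells were 202.9, 162.6 and 192.7 for MRPS10, 61.5, 50.8 and 58.4 for MRPS24, 61.1, 64.7 and 59.5 for MRPL14, 67.0, 57.9 and 55.7 for MRPS6, and 88.6, 73.7 and 80.2 for MRPL37.

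The lowest in control were the small-subunit genes MRPS11 at 3.36 ± 0.0647, MRPS17 at 3.70 ± 0.372, MRPS25 at 4.47 ± 0.203, MRPS23 at 5.37 ± 0.0891 and MRPS14 at 5.79 ± 0.132 CPM per kb. MRPS11 and MRPS17 do not differ beyond their SDs, and the MRPS17 count is uncertain because the gene shares exons with NIPSNAP2 on the same strand. The annotated transcripts of MRPS11, MRPS23 and MRPS25 are long, at 3644, 5621 and 4586 bp, and which forms these cells use was not measured. Their log2 fold changes lay between -0.03 and 0.21 in knockdown cells and between -0.15 and 0.14 with PRGL493, with adjusted p values of at least 0.061 in edgeR's quasi-likelihood test with Benjamini-Hochberg adjustment.

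**Figure D1:**
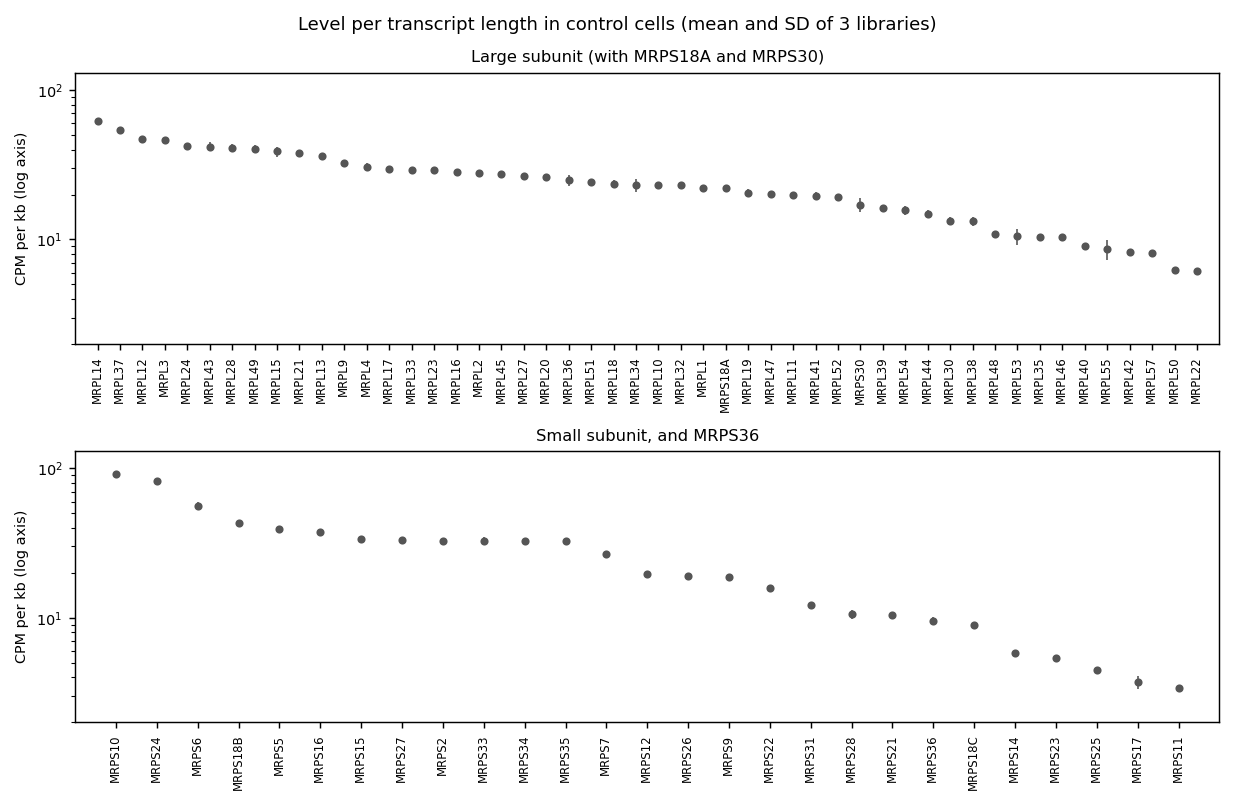
Level of each mitochondrial ribosomal protein gene in control cells, in CPM per kb of transcript on a log axis, as mean and SD of 3 libraries, large subunit above and small subunit below. MRPS10 stands highest at 91.3 and MRPS11 lowest at 3.36 CPM per kb.

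Knockdown of ACSL4 was set against the empty vector to ask what loss of the enzyme does to RNA levels. Members were on balance slightly higher in knockdown cells, with a median log2 fold change of 0.13 against 0.00 for all genes tested and a positive value in 66 of 77. At an adjusted p under 0.05, 17 members (22.1%) were called higher and 1 was called lower, while 14.7% of all genes tested were called higher and 15.3% lower. The folds were small, from 1.12 to 1.29 for the members called higher. Summed over the members, knockdown replicates 1, 2 and 3 held 2777.5, 3253.2 and 2904.8 CPM, against 2737.5, 2783.8 and 2764.8 CPM in control, so replicate 2 was far above the rest and replicate 1 lay within the control range. In bulk RNA, fewer cells that express a gene and less of its RNA per cell cannot be told apart.

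The rise leaned on replicate 2. Against the control mean, the median log2 ratio of the members was 0.04, 0.25 and 0.10 in knockdown replicates 1, 2 and 3, and 69 of 77 members had their highest knockdown value in replicate 2. The median coefficient of variation of a member within a group was 10.4% in knockdown, 4.59% in PRGL493 and 4.31% in control cells. Without replicate 2 the count was 10 higher (13.0%, against 15.2% of all genes tested) and 4 lower (5.19%, against 16.3%), with a median of 0.06, so the share called higher was then not above that of all genes. Leaving out knockdown replicate 1 gave 32 higher, and leaving out control replicate 1, 2 or 3 gave 8, 9 or 8 higher. Shares of all genes in these last fits are not given here. The counts alone do not show whether the members moved more than other genes.

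Genes of like length gave a nearer yardstick. Among the 3336 tested genes with short transcripts, 19.4% were called higher and 7.19% lower in knockdown cells, with a median of 0.08, and without replicate 2 these were 15.4%, 10.4% and 0.03. Among members, the 61 with short transcripts had a median of 0.13 and 14 calls higher, and the 16 with longer transcripts had a median of 0.12, with 3 called higher and 1 lower. Removing each library's trend on transcript length alone gave 20 members higher and 3 lower, with 19.0% of all genes called higher and 14.6% lower. With the trend on length and GC content removed, 21 members (27.3%) were called higher and 4 lower, while 21.1% of all genes were called higher and 16.4% lower. The members' median was then 0.07, against 0.02 for all genes.

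**Figure D2:**
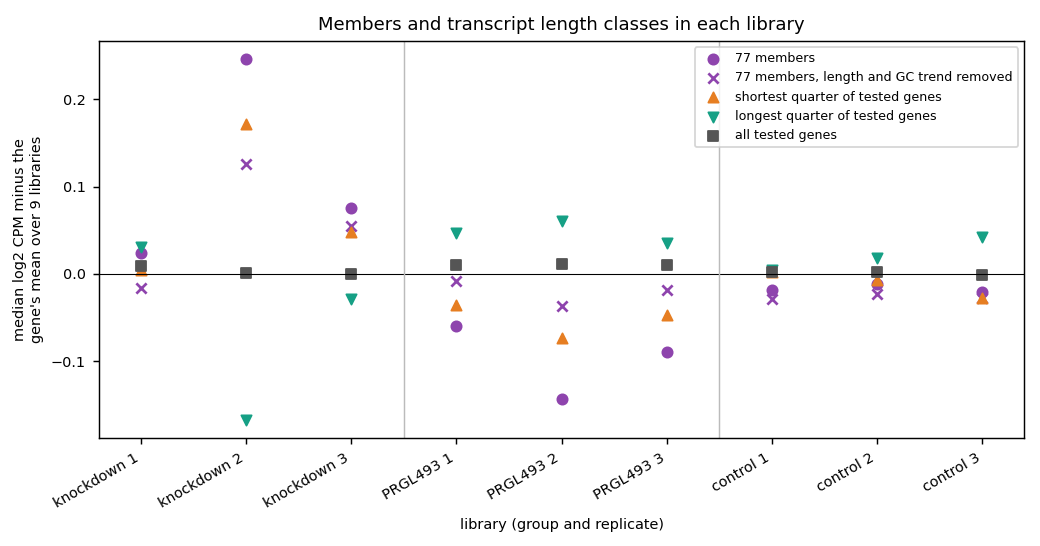
Median log2 CPM of each library relative to the gene's mean over the 9 libraries, for the 77 members before and after removing the length and GC trend, the tested genes with short and long transcripts and all tested genes, with libraries along the x axis. In knockdown replicate 2 the members stand at 0.25 before and 0.13 after removal, and the genes with short transcripts at 0.17.

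MRPS33, a small-subunit protein specific to mitochondria (chromosome 7, 141002610 to 141015228, minus strand), had the smallest adjusted p. It was at 30.8, 35.9 and 34.3 CPM in the knockdown libraries, against 25.1, 25.3 and 27.9 CPM in the control libraries. All 3 knockdown libraries lay above all 3 controls, and the log2 fold change was 0.37 (SE 0.07, adjusted p = 0.00097). Leaving out replicate 2 gave 0.32 (adjusted p = 0.00074), and removing the length and GC trend gave 0.23 (adjusted p = 0.007). With PRGL493 MRPS33 had 23.1, 23.4 and 23.5 CPM, below every control library, but it was not called (-0.16, adjusted p = 0.083).

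Several small proteins of the large subunit were also called higher. MRPL33, among the shortest of them, had 17.8, 20.2 and 18.8 CPM in knockdown cells against 15.2, 15.8 and 14.6 CPM in control (log2 fold change 0.32, SE 0.08, adjusted p = 0.0054). MRPL36, another short one, had 17.8, 20.6 and 18.4 CPM in knockdown cells against 16.3, 14.96 and 13.75 CPM in control (0.34, SE 0.09, adjusted p = 0.0073). Neither gene's knockdown values overlapped its control values. With the length and GC trend removed MRPL33 did not pass (0.15, adjusted p = 0.097), while MRPL36 did (0.20, adjusted p = 0.030). Without control replicate 3 MRPL36 was just over the threshold (0.28, adjusted p = 0.050). MRPL33 shares exons with BABAM2 on the same strand, so its count is uncertain.

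MRPL16, which lies near the transfer RNA sites of the large subunit, had 37.98, 47.3 and 40.4 CPM in knockdown cells against 34.4, 34.5 and 31.8 CPM in control (log2 fold change 0.32, SE 0.08, adjusted p = 0.0062). MRPL20, which binds ribosomal RNA during assembly in bacteria, had 21.9, 27.4 and 21.7 CPM in knockdown cells against 18.7, 19.96 and 18.2 CPM in control (0.32, SE 0.09, adjusted p = 0.011). In both genes all knockdown libraries were above all controls and replicate 2 was highest. Without replicate 2 the log2 fold changes were 0.22 for MRPL16 (adjusted p = 0.011) and 0.20 for MRPL20 (adjusted p = 0.033). Without control replicate 3 MRPL20 did not pass (0.29, adjusted p = 0.053).

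Of the small subunit, MRPS26, MRPS6 and MRPS9 joined MRPS33. MRPS26, specific to mitochondria, had 23.6, 30.04 and 26.4 CPM in knockdown cells against 21.9, 21.9 and 20.8 CPM in control (log2 fold change 0.31, SE 0.08, adjusted p = 0.0081). MRPS6 had 60.7, 74.5 and 65.9 CPM in knockdown cells against 52.4, 58.0 and 56.8 CPM in control (0.27, SE 0.07, adjusted p = 0.011). MRPS9, whose bacterial counterpart reaches to the decoding site, had 32.9, 33.6 and 31.7 CPM in knockdown cells against 28.0, 28.0 and 28.9 CPM in control (0.21, SE 0.06, adjusted p = 0.017). For MRPS9 replicate 2 did not stand out, and the log2 fold change was 0.19 without it (adjusted p = 0.026). Removing the trend gave 0.13 (adjusted p = 0.058). Without control replicate 1 neither MRPS9 (0.20, adjusted p = 0.059) nor MRPS6 (0.22, adjusted p = 0.065) passed, and MRPS9 did not without control replicate 2 (adjusted p = 0.061).

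Among the rest called higher, MRPL22, a protein of the exit tunnel, and MRPL45, which anchors the ribosome at the inner membrane, had log2 fold changes of 0.26 and 0.21. MRPL11, MRPL17, MRPL53, MRPL52 and MRPS18B had values from 0.17 to 0.36. These 7 were the calls that were lost without replicate 2, and the other 10 of the 17 were called both ways. Of those 10, MRPL33, MRPL36, MRPL15, MRPL30, MRPS26 and MRPS6 then had log2 fold changes from 0.18 to 0.27 (adjusted p from 0.011 to 0.020). In MRPL53 and MRPL17 the knockdown and control libraries overlapped. MRPL53 shares exons with CCDC142 on the same strand, so its count is uncertain. Counted without a model, 25 members had all knockdown libraries above all controls (32.5%, against 20.8% of all genes tested) and 2 had all below (2.60%, against 21.2%).

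MRPL35, of the large subunit, was the single member called lower. It had 34.8, 34.1 and 31.9 CPM in knockdown cells against 38.6, 38.6 and 39.3 CPM in control, with no overlap (log2 fold change -0.21, SE 0.06, adjusted p = 0.013). The value was -0.22 without replicate 2 (adjusted p = 0.007), removing the length and GC trend gave -0.20 (adjusted p = 0.0037), and without knockdown replicate 3 it did not pass (-0.17, adjusted p = 0.066). The large-subunit genes MRPL27, MRPL49 and MRPL38 joined it with replicate 2 left out, at -0.35, -0.29 and -0.25. MRPL27, whose bacterial counterpart reaches to the site of peptide bond formation, had 14.1, 19.3 and 15.7 CPM in knockdown cells against 19.2, 17.7 and 19.9 CPM in control. Its replicates 1 and 3 lay below every control library and replicate 2 lay among them.

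**Figure D3:**
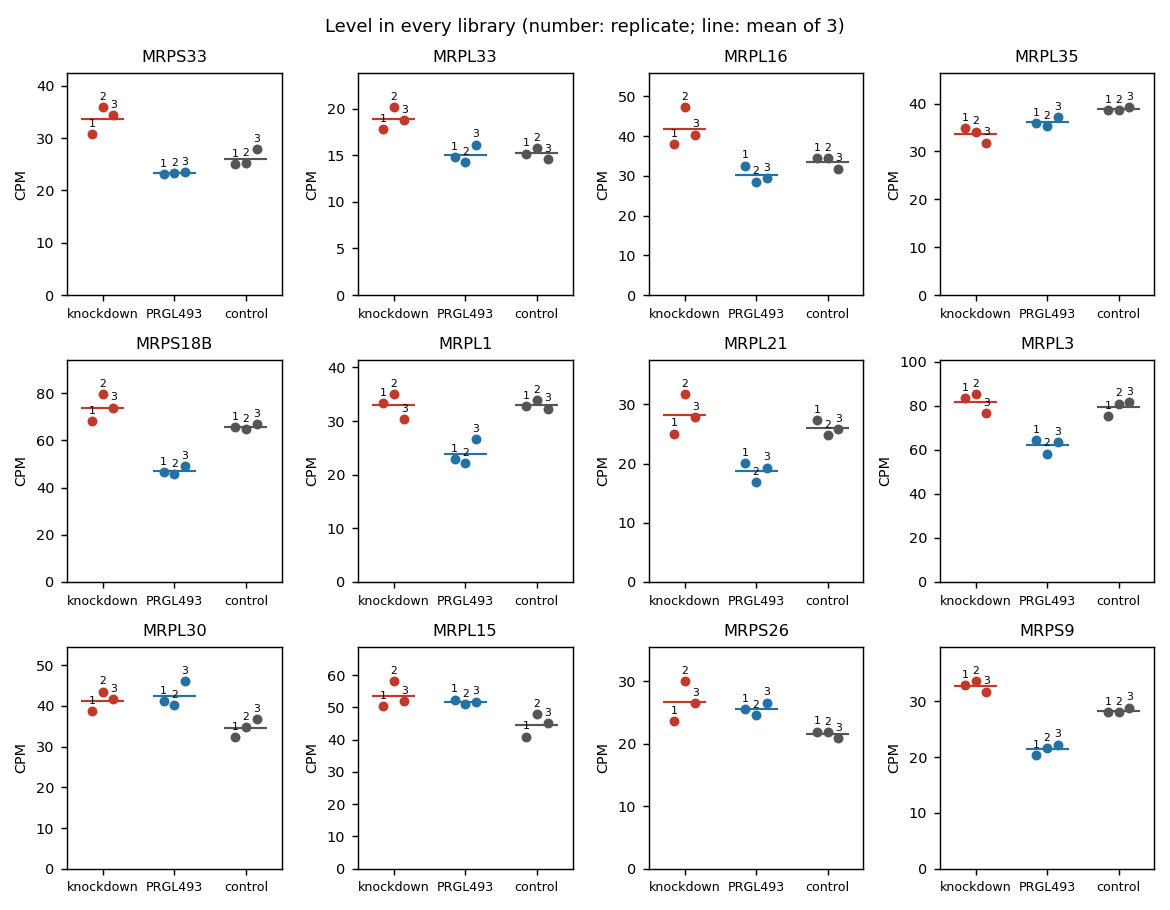
CPM of 12 members in every library, in knockdown, PRGL493 and control cells, with the replicate number at each point and a line at the mean of 3. In MRPS33, MRPL16 and MRPS26 knockdown replicate 2 is the highest point of all, and in MRPS18B and MRPL1 every PRGL493 library lies below every control library.

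PRGL493 was set against the same control libraries to ask what inhibiting the enzyme does. Here members leaned down, with 19 (24.7%) called lower and 5 (6.49%) called higher, while 20.4% of all genes tested were called lower and 21.4% higher. Their median log2 fold change was -0.07, against 0.01 for all genes, and 51 of 77 were negative. The share called lower was near that of all genes, and the share called higher was under it. The sum over the members was 2619.8, 2501.1 and 2602.3 CPM in the PRGL493 libraries against 2737.5, 2783.8 and 2764.8 CPM in the control libraries, so all 3 lay below all controls. All 3 PRGL493 libraries lay below all controls in 31 members (40.3%, against 27.2% of all genes tested) and above them in 12 (15.6%, against 30.1%).

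Small-subunit genes made up 9 of the 19 falls and 1 of the 5 rises, from 26 genes, and large-subunit genes 10 and 4, from 50. Whether the subunits differed was not tested. Among genes with short transcripts 22.2% were called lower and 13.3% higher, with a median of -0.04. With the length trend removed 15 members were called lower and 20 higher, while 19.6% and 28.9% of all genes were. With the length and GC trend removed 15 members (19.5%) were called lower and 19 (24.7%) higher, against 20.4% and 30.6% of all genes, and the median turned to 0.01, against 0.05 for all genes. The sign of the members' median thus did not hold under that setting, while 15 of the 19 falls did. Relative to all genes, the members' median and their share called higher were still the lower ones. The count called higher was 8 without knockdown replicate 1, 10 without knockdown replicate 2 (with 26.0% of all genes called higher and 23.9% lower), 3 without control replicate 1 or 3, and 2 without PRGL493 replicate 1 or 3. Shares of all genes are not given here for the fits that left out a library other than knockdown replicate 2.

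**Figure D4:**
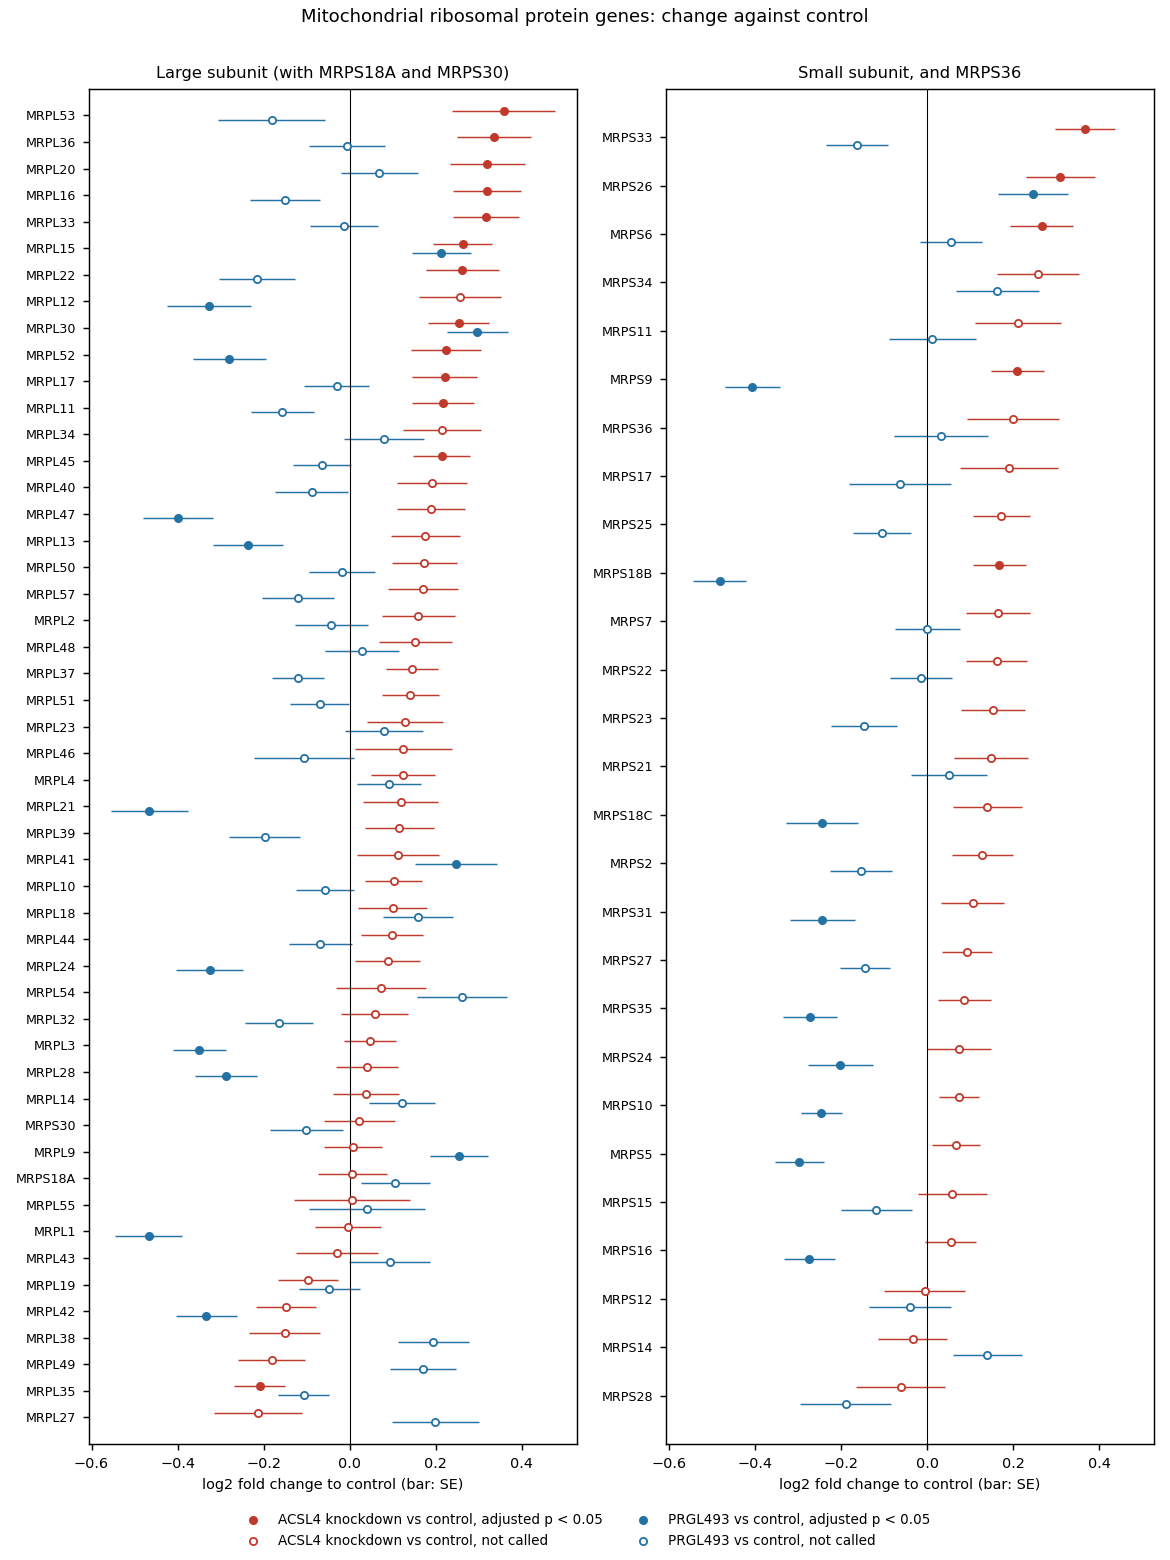
Log2 fold change to control with its SE for all 77 members in knockdown cells (red) and with PRGL493 (blue), large subunit left and small subunit right, ordered by the knockdown value, with filled points for an adjusted p under 0.05. MRPS33 stands at 0.37 in knockdown cells and MRPS18B at -0.48 with PRGL493.

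MRPS18B, 1 of 3 human paralogs of a single bacterial protein (chromosome 6, 30617709 to 30626395, plus strand), had the smallest adjusted p. It had 46.6, 45.5 and 49.1 CPM with PRGL493 against 65.6, 64.8 and 67.0 CPM in control. The groups lay far apart, at 0.716 of the control level (log2 fold change -0.48, SE 0.06, adjusted p = 1.3e-05). The other two paralogs occupy different places, and whether the paralogs differed in response was not tested. MRPS18C, which takes the bacterial protein's own site, fell to 12.48, 11.6 and 12.9 CPM with PRGL493, against 13.8, 15.4 and 14.8 CPM in control (-0.24, SE 0.08, adjusted p = 0.026). MRPS18A, which sits in the large subunit, had 25.9, 24.8 and 24.7 CPM with PRGL493 against 23.0, 24.1 and 22.9 CPM in control, and did not pass the test (0.11, SE 0.08, adjusted p = 0.30). In knockdown cells MRPS18A and MRPS18C did not pass either, at 0.01 (adjusted p = 0.96) and 0.14 (adjusted p = 0.20). Without control replicate 2 or 3 or PRGL493 replicate 1 or 2, MRPS18C had adjusted p values from 0.056 to 0.11, and it did not pass once the length trend (-0.16, adjusted p = 0.097) or the trend on length and GC (-0.10, adjusted p = 0.25) was removed. MRPS18A was called higher with PRGL493 under those settings (0.22 and 0.20, adjusted p = 0.0092 and 0.0068). Reads of MRPS18B and MRPS18C may be shared with the 2 named pseudogenes of each.

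Of the large subunit, MRPL1, which forms the mobile stalk beside the exit site, had 22.8, 22.1 and 26.7 CPM with PRGL493 against 32.8, 33.9 and 32.3 CPM in control (log2 fold change -0.47, SE 0.08, adjusted p = 0.00015). MRPL21 had 20.1, 16.9 and 19.3 CPM with PRGL493 against 27.3, 24.9 and 25.8 CPM in control (-0.47, SE 0.09, adjusted p = 0.00054). MRPL47, at the mouth of the exit tunnel, had 22.2, 20.7 and 20.2 CPM with PRGL493 against 26.7, 27.8 and 28.7 CPM in control (-0.40, SE 0.08, adjusted p = 0.00086). All PRGL493 values of these 3 genes lay below all control values. In knockdown cells MRPL1 was level with control at 33.4, 35.05 and 30.3 CPM (log2 fold change -0.0039, SE 0.08).

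MRPL3, which reaches the catalytic centre, had 64.5, 58.3 and 63.6 CPM with PRGL493 against 75.2, 81.0 and 81.6 CPM in control (log2 fold change -0.35, SE 0.06, adjusted p = 0.00025). MRPL42, specific to mitochondria, had 49.6, 52.4 and 60.03 CPM with PRGL493 against 66.5, 65.7 and 71.7 CPM in control (-0.33, SE 0.07, adjusted p = 0.0011). Both groups were apart in each gene. MRPL12, the stalk protein that also binds the mitochondrial RNA polymerase, had 40.03, 38.6 and 36.5 CPM with PRGL493 against 51.4, 47.2 and 45.9 CPM in control (-0.33, SE 0.10, adjusted p = 0.015). MRPL24, MRPL28, MRPL52 and MRPL13 were the other large-subunit genes that fell, by 0.24 to 0.33 on the log2 scale. The count of MRPL28 is uncertain because it shares exons with TMEM8A on the same strand. MRPL12 lost its call without control replicate 1 or PRGL493 replicate 3. MRPL13 lost its call without control replicate 2 or 3 or PRGL493 replicate 2 or 3, and with either trend removed.

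In the small subunit MRPS9 had 20.3, 21.6 and 22.2 CPM with PRGL493 against 28.0, 28.0 and 28.9 CPM in control (log2 fold change -0.41, SE 0.06, adjusted p = 8.3e-05). MRPS5, which lines the entry channel of the messenger RNA, had 55.3, 49.6 and 53.8 CPM with PRGL493 against 64.5, 67.1 and 63.6 CPM in control (-0.30, SE 0.06, adjusted p = 0.00051). MRPS10 had 162, 159 and 166 CPM with PRGL493 against 187, 197 and 194 CPM in control (-0.25, SE 0.05, adjusted p = 0.00060). MRPS16, an assembly protein in bacteria, had 81.7, 79.4 and 85 CPM with PRGL493 against 102, 95.3 and 99.9 CPM in control (-0.27, SE 0.06, adjusted p = 0.0016). In all 4 genes every PRGL493 library lay below every control library. MRPS35, MRPS31 and MRPS24 also fell, by 0.20 to 0.27 on the log2 scale, and MRPS24 missed the threshold with any 1 of 7 libraries left out. MRPS31 lost its call without control replicate 2 or 3 or PRGL493 replicate 2, and both MRPS31 and MRPS24 lost theirs with either trend removed. MRPS16 and MRPS5 share exons with DNAJC9 and ZNF514, so their counts are uncertain.

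The 5 members that rose with PRGL493 were MRPL30, MRPL9, MRPL15, MRPS26 and MRPL41. MRPL30, of the large subunit (chromosome 2, 99181079 to 99197626, plus strand), had 41.1, 40.3 and 46.2 CPM with PRGL493 against 32.4, 34.8 and 36.7 CPM in control (log2 fold change 0.30, SE 0.07, adjusted p = 0.0032). MRPL9 had 51.1, 49.6 and 50.2 CPM with PRGL493 against 42.8, 43.6 and 40.3 CPM in control (0.25, SE 0.07, adjusted p = 0.0062). MRPL41, specific to mitochondria, had 29.4, 29.2 and 29.5 CPM with PRGL493 against 25.6, 25.5 and 23.3 CPM in control (0.25, SE 0.10, adjusted p = 0.048). None of the 5 overlapped with control. MRPL41 passed narrowly and lost its call in 10 of 20 other settings, at adjusted p values up to 0.17. MRPL9 and MRPL30 share exons with unnamed loci on the same strand.

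Knockdown and PRGL493 were measured against the same 3 control libraries, so a shared direction is not independent evidence, and the values are set side by side. Members called higher in both were MRPL15, MRPL30 and MRPS26. MRPL15, of the large subunit, had 50.4, 58.2 and 52.0 CPM in knockdown cells and 52.4, 50.9 and 51.8 CPM with PRGL493, against 41.0, 47.8 and 45.0 CPM in control (log2 fold changes 0.26 and 0.21, adjusted p = 0.0082 and 0.020). MRPL30 had 38.7, 43.5 and 41.6 CPM in knockdown cells (0.25, adjusted p = 0.013), close to its PRGL493 values. MRPS26 had 25.5, 24.6 and 26.6 CPM with PRGL493 (0.25, adjusted p = 0.022). Without control replicate 1, MRPL15 passed in neither comparison (adjusted p = 0.060 in knockdown cells and 0.12 with PRGL493), and MRPL30 did not pass in knockdown cells (adjusted p = 0.078). With PRGL493, leaving out any 1 of the 3 PRGL493 libraries took MRPL15 to adjusted p values from 0.050 to 0.076. MRPS26 lost its PRGL493 call without control replicate 3, PRGL493 replicate 1 or PRGL493 replicate 3 (adjusted p = 0.081, 0.062 and 0.089).

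MRPS9, MRPS18B and MRPL52 were called in opposite directions. MRPS18B had 68.2, 79.7 and 73.9 CPM in knockdown cells, above control (log2 fold change 0.17, SE 0.06, adjusted p = 0.047), and 46.6 to 49.1 CPM with PRGL493, below it. MRPL52, specific to mitochondria, had 23.6, 28.7 and 23.1 CPM in knockdown cells and 18.5, 16.96 and 17.7 CPM with PRGL493, against 20.6, 22.1 and 21.9 CPM in control (0.22 with adjusted p = 0.048, and -0.28 with adjusted p = 0.014). The rises of MRPS18B and MRPL52 in knockdown cells passed in only 7 of 20 other settings each. Without knockdown replicate 2 they were 0.11 (adjusted p = 0.14) and 0.12 (adjusted p = 0.21). The fall of MRPL52 missed the threshold without control replicate 2 or PRGL493 replicate 2 (adjusted p = 0.054 and 0.052).

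Set against PRGL493 directly, without the control libraries in the contrast, knockdown cells had the higher level in most members. By this test 42 (54.5%) were called higher and 4 lower, while 24.4% of all genes tested were called higher and 26.0% lower, and the median log2 fold change was 0.22 against -0.01 for all genes. Of the 26 small-subunit genes 16 were called, all higher, and of the 50 large-subunit genes 26 were called higher and 4 lower. All knockdown libraries lay above all PRGL493 libraries in 42 members, against 27.3% of all genes tested, and below them in 6, against 28.7%. Without knockdown replicate 2 the counts were 37 higher (48.1%, against 24.6% of all genes) and 10 lower (13.0%, against 26.6%), with a median of 0.15.

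Among genes with short transcripts 34.3% were called higher and 13.2% lower in this comparison, with a median of 0.13. With the length trend removed 33 members were called higher and 11 lower, while 24.2% and 28.2% of all genes were. With the length and GC trend removed 29 members (37.7%) were called higher and 13 (16.9%) lower, against 24.4% and 29.9% of all genes, and the median was 0.08, against -0.03 for all genes. MRPS18B had the smallest adjusted p (log2 fold change 0.65, SE 0.06, adjusted p = 3.0e-07), then MRPS9 (0.62, SE 0.06, adjusted p = 6.1e-07). MRPS33, MRPL47, MRPS10 and MRPL21 had the next smallest adjusted p values, with log2 fold changes of 0.53, 0.59, 0.32 and 0.58. Without knockdown replicate 2 all 6 were still called, at 0.59 for MRPS18B, 0.60 for MRPS9, 0.48 for MRPS33, 0.49 for MRPL47, 0.30 for MRPS10 and 0.49 for MRPL21.

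The 4 members lower in knockdown than in PRGL493 cells were large-subunit genes. MRPL27 had 14.1, 19.3 and 15.7 CPM in knockdown against 23.6, 20.9 and 20.5 CPM in PRGL493 cells (log2 fold change -0.41, SE 0.10, adjusted p = 0.0027). MRPL49 had 64.4, 82.5 and 70.2 CPM in knockdown cells against 95.3, 93.6 and 88.2 CPM in PRGL493 cells (-0.35, SE 0.08, adjusted p = 0.0011). MRPL38, specific to mitochondria like MRPL49, had 20.3, 25.5 and 21.9 CPM in knockdown cells against 28.4, 28.1 and 29.4 CPM in PRGL493 cells (-0.35, SE 0.08, adjusted p = 0.0021), and MRPL9 differed by -0.25 (SE 0.07, adjusted p = 0.0056). None overlapped, although knockdown replicate 2 was in each case the knockdown library nearest to PRGL493. Without it the differences were -0.55 for MRPL27, -0.46 for MRPL49, -0.44 for MRPL38 and -0.33 for MRPL9. MRPL49 overlaps FAU and SYVN1 on the opposite strand, and whether counting used the strand is not given.

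**Figure D5:**
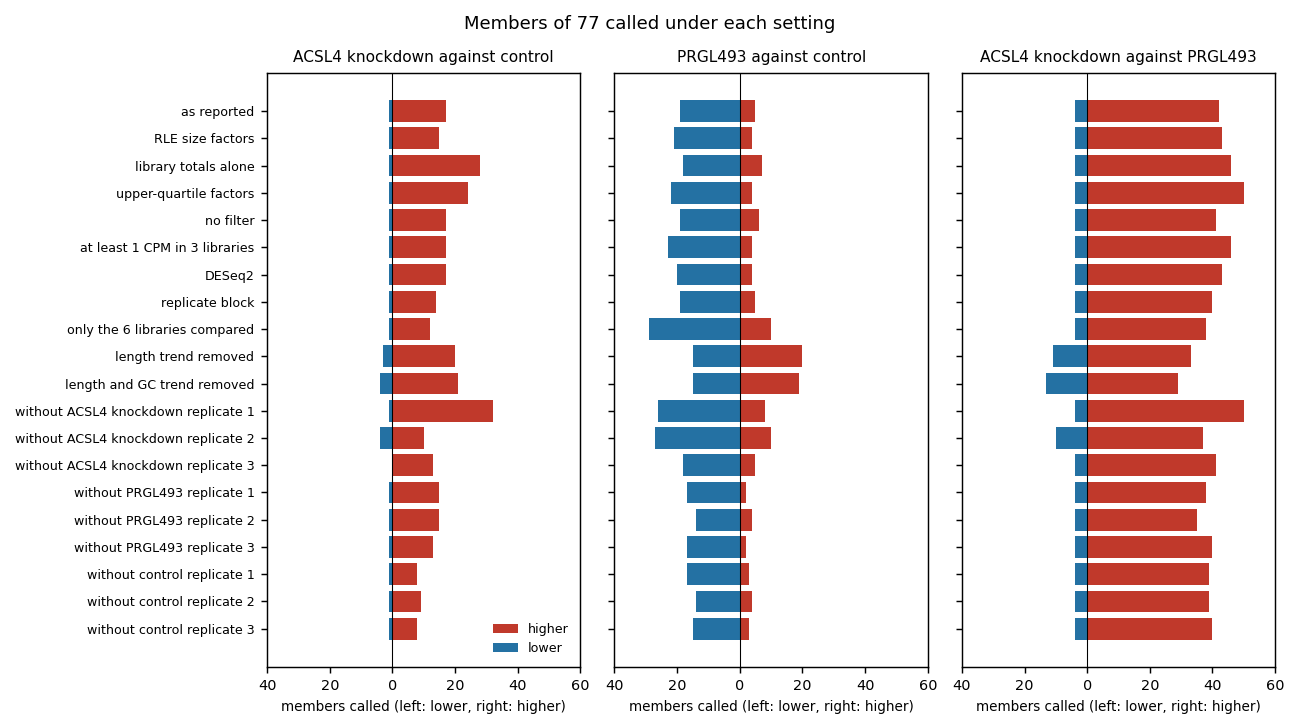
Number of the 77 members called higher (right, red) and lower (left, blue) in each comparison, as reported and under each other setting or with 1 library left out. In knockdown against control the count called higher runs from 8 to 32, and in knockdown against PRGL493 it stays between 29 and 50.

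The genes that work with the mitoribosome were counted from lists. Of 6 further mitoribosome proteins that go by other symbols, edgeR and DESeq2 both called 0 in knockdown cells, with 2 at an unadjusted p under 0.05. Of all genes tested, edgeR called 30.1% in knockdown cells. With PRGL493 2 of the 6 fell (33.3%, against 20.4% of all genes called lower). DAP3, a GTP-binding protein of the small subunit, averaged 75.7 ± 1.32 CPM with PRGL493 against 102 ± 2.22 CPM in control (SD, n = 3 each, log2 fold change -0.42, adjusted p = 1.3e-05), and PTCD3, also of the small subunit, 98.1 ± 1.78 CPM with PRGL493 against 112 ± 2.69 CPM in control (-0.20, adjusted p = 0.0039).

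Of 20 mitochondrial translation factors 4 were called higher in knockdown cells (20%, against 14.7% of all genes tested), and 2 without replicate 2. With PRGL493 8 were called lower (40%, against 20.4% of all genes). Removing the length and GC trend gave 5 higher and 1 lower in knockdown cells, and 3 higher and 8 lower with PRGL493. In knockdown cells C12orf65, a release factor homolog that rescues stalled ribosomes, averaged 46.7 ± 2.71 CPM against 32.1 ± 3.04 CPM in control (log2 fold change 0.54, adjusted p = 3.5e-05), and LRPPRC, OXA1L and TSFM were the others. With PRGL493 LRPPRC, which stabilises mitochondrial messenger RNA, averaged 212 ± 1.89 CPM against 314 ± 0.792 CPM in control (-0.57, adjusted p = 3.9e-08). Its partner SLIRP was at -0.52 (adjusted p = 0.00062). GUF1, MRRF, TUFM, GFM1, GFM2 and MTIF2, factors of initiation, elongation and recycling, were the other 6 that fell, by 0.24 to 0.36 on the log2 scale.

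Of 17 mitochondrial aminoacyl-tRNA synthetases, which load transfer RNAs, 4 were higher and 2 lower in knockdown cells, also without replicate 2. In knockdown cells that is 23.5% higher and 11.8% lower, against 14.7% and 15.3% of all genes tested. With PRGL493 0 were called higher and 6 lower (35.3% lower, against 20.4% of all genes). In both directions together the share called was 35.3% in each comparison. For all genes tested it was 30.1% in knockdown cells and 41.8% with PRGL493. NARS2 and CARS2 fell by 0.50 and 0.43 with PRGL493 on the log2 scale. Of 16 genes for mitochondrial DNA and RNA supply 2 were higher in knockdown cells (12.5%, against 14.7% of all genes tested), also without replicate 2. With PRGL493 1 was higher (6.25%, against 21.4% of all genes) and 7 were lower (43.8%, against 20.4%). PNPT1, an RNA-degrading enzyme, averaged 25.2 ± 1.94 CPM with PRGL493 against 40.8 ± 0.619 CPM in control (log2 fold change -0.69, adjusted p = 6.2e-07), and POLG, the mitochondrial DNA polymerase, was the gene called higher (0.39, adjusted p = 6.0e-05). Of 29 assembly and RNA-modification genes 3 were higher and 1 lower in knockdown cells (2 and 1 without replicate 2), and 6 were higher and 7 lower with PRGL493. That is 13.8% and 44.8% called, against 30.1% and 41.8% of all genes. MTG1, a GTPase of large-subunit assembly, was called in opposite directions, at -0.47 in knockdown cells and 0.65 with PRGL493 (adjusted p = 0.0020 and 3.9e-05).

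Nuclear regulators of mitochondrial genes were mixed. Of 14 such genes 2 were higher and 2 lower in knockdown cells (2 and 1 without replicate 2), and 5 were higher and 4 lower with PRGL493. The share called was 28.6% in knockdown cells, near the 30.1% of all genes, and 64.3% with PRGL493, against 41.8%. MYC, a growth regulator, averaged 188 ± 11.4 CPM in knockdown and 258 ± 7.27 CPM in PRGL493 cells, against 397 ± 9.19 CPM in control (log2 fold changes -1.07 and -0.62, adjusted p = 1.1e-10 and 8.5e-08). GABPA, an ETS factor whose core motif is searched above, averaged 37.5 ± 3.35 CPM in knockdown and 53.9 ± 4.88 CPM in PRGL493 cells, against 43.9 ± 3.56 CPM in control (-0.23 and 0.29, adjusted p = 0.043 and 0.0077). In knockdown cells GABPA passed only narrowly. E2F1 was higher in both treatments (0.31 and 0.65, adjusted p = 0.00077 and 2.2e-07). With PRGL493 ATF5 was higher (0.69, adjusted p = 2.4e-06), and PPARGC1B and ESRRA were lower (-0.81 and -0.40, adjusted p = 0.00015 and 0.00012). The remaining calls were MAX, higher in knockdown cells, and with PRGL493 HCFC1 and SP1, higher, and PPARGC1A, lower. YY1 RNA did not pass in either comparison (0.03 and -0.05, adjusted p = 0.74 and 0.52), nor did NRF1 (0.02 and 0.07, adjusted p = 0.88 and 0.44).

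The genes of the cytosolic ribosome, which makes all nuclear-encoded proteins, leaned the same way in knockdown cells. Of the 84 tested of 88, 56 were higher (66.7%) and 1 lower (1.19%) in knockdown cells, with a median log2 fold change of 0.24. Of all genes tested 14.7% were called higher and 15.3% lower. Without replicate 2 the counts and median of the set were 50, 1 and 0.17, with 15.2% of all genes called higher and 16.3% lower. The members' medians in the same fits were 0.13 and 0.06. With PRGL493 2 cytosolic ribosomal protein genes were higher and 24 lower, with a median of -0.08 beside the members' -0.07, while 21.4% of all genes were called higher and 20.4% lower. Removing the length trend gave 14 higher, 15 lower and a median of 0.01, while 28.9% of all genes were called higher and 19.6% lower. Removing the length and GC trend gave 16, 16 and 0.01, while 30.6% of all genes were called higher and 20.4% lower. The sign of the median thus did not hold there, although with length and GC removed it still lay below that of all genes. Counts of this set with a trend removed are not given here for knockdown cells. No test was run between these sets.

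Members lie on 21 chromosomes, and 19 start within 1000 bp of a divergent gene. MRPL46 and MRPS11 share such a start, 34 bp apart, and neither passed in knockdown cells (0.12 and 0.21, adjusted p = 0.44 and 0.12) or with PRGL493 (-0.11 and 0.01). Neighbours did not always follow their member. MRPL21 fell by 0.47 on the log2 scale with PRGL493, while IGHMBP2, a helicase gene 7 bp away, had 29.3 ± 0.421 CPM with PRGL493 against 24.98 ± 1.96 CPM in control (log2 fold change 0.23, adjusted p = 0.013). EME1, a nuclease gene 6 bp from MRPL27, rose in both treatments (0.56 and 0.39, adjusted p = 0.00048 and 0.0049), while MRPL27 passed in neither. SLC7A7, an amino acid transporter gene 59 bp from MRPL52, fell by 1.28 with PRGL493 (adjusted p = 3.7e-06), where MRPL52 also fell (-0.28, adjusted p = 0.014). In knockdown cells SLC7A7 did not pass (-0.04, adjusted p = 0.84), while MRPL52 was called higher (0.22, adjusted p = 0.048). By GENCODE 29, exons of 16 members overlap another gene on the same strand and those of 29 overlap one on the opposite strand, and 34 have named pseudogenes, so reads of these genes could be split between loci.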

How the data were processed

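RNA-seq of 9 libraries was analysed from a table of estimated counts per gene symbol that the authors deposited. The genome build was GRCh38 per the submitters' processing notes, while aligner, counter, annotation release and strand use were not given in the sources. The other per-sample columns in the table numbered 0. Of the deposited values 10.493% were not whole, and all were rounded. With edgeR 4.0.16 (R 4.3.3), filterByExpr kept 14135 of 26475 genes, TMM factors scaled the libraries, and a quasi-likelihood model with robust dispersion and group as its only term was fitted to all 9 libraries, leaving 6 residual degrees of freedom, at a biological coefficient of variation of 6.38%. P-values of a contrast were Benjamini-Hochberg adjusted over the whole table, and a call is an adjusted p under 0.05. CPM values are TMM-scaled and have no counting interval; the number of libraries, more than depth, limits their precision. Replicates differed by more than sampling noise (the smallest chi-square per degree of freedom was 4.03), so each counted as 1 sample.

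Transcript length is the median over principal transcripts of GENCODE 29, which gave a length to all 77 members and to 94.4% of tested genes. Its coordinates are on GRCh38. The length and GC setting removed a smooth trend on both from each library. Alternatives were other scalings, filters, models and left-out libraries, DESeq2 1.42.0 among them. The text names, for each treatment, up to 10 members called per direction by smallest adjusted p, and up to 6 per direction between treatments. It also names members called in both treatments, the 5 highest and 5 lowest per kb and the MRPS18 paralogs. For several of the other lists only some of the called genes are named, not always those with the smallest adjusted p. Other genes named were chosen after their values were seen. The members and the gene lists were chosen with earlier results of these data known.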

Additional observations from a re-analysis of the deposited data

How the results depend on the processing

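Knockdown against control: the number of members called higher (17) was 28 with library totals alone and 8 to 32 with 1 library left out, and the number called lower (1) was 3 with the length trend removed, 4 with the length and GC trend removed and 0 to 4 with 1 library left out. PRGL493 against control: the number called higher (5) was 20 with the length trend removed, 19 with the length and GC trend removed, 10 with only the 6 libraries compared and 2 to 10 with 1 library left out. The number called lower (19) was 29 with the 6 libraries and 14 to 27 with 1 left out. The median (-0.07) turned to 0.0042 without the length trend, to 0.013 without the length and GC trend, and was -0.102 to -0.0641 with 1 library left out. All genes shifted too. Of all genes tested, 28.9% were called higher without the length trend and 30.6% without the length and GC trend, against 21.4% in the main model. With the length and GC trend removed, the median of all genes also lay above its value in the main model. Knockdown against PRGL493: the number called lower (4) was 11 with the length trend removed, 13 with the length and GC trend removed and 4 to 10 with 1 library left out, and the median (0.22) was 0.0779 and 0.0759. The log2 difference of MRPL15 turned to -0.17 (adjusted p = 0.0087) and that of MRPS6 to -0.0201 (adjusted p = 0.76) with the length and GC trend removed; the cause was not tested. Upper-quartile factors moved the split of all genes in knockdown against control from 2083 higher and 2167 lower to 2590 and 1823, library totals alone moved it to 2660 and 1785, and upper-quartile factors moved knockdown against PRGL493 from 3454 and 3676 to 4176 and 2976. DESeq2 called 17 members higher and 1 lower in knockdown cells, 4 and 20 with PRGL493, and 43 and 4 between treatments. Of 108 single-gene values, DESeq2 kept the direction and the side of the threshold in 105. For the fits with 1 library left out, shares of all genes are given above only where knockdown replicate 2 was left out.

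With the replicate number as a block, 14 members were called higher and 1 lower in knockdown cells, 5 and 19 with PRGL493, and 40 and 4 between treatments. The deviations of same-numbered libraries correlated at 0.06 to 0.15 between knockdown and control, where differently numbered ones ran from -0.14 to 0.02. Between the other groups same-numbered libraries correlated below 0. The numbers were not used to pair the samples in the main model. Single-gene values of the block changed 2 calls of 108. What limits these results is 3 libraries a group, and 1 knockdown library with a length trend of its own.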

Other observations

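Among pseudogene rows of the family, which the naming rule left out, MRPS31P5 averaged 3.55 ± 0.164 CPM in knockdown cells and 2.93 ± 0.319 CPM with PRGL493, against 4.16 ± 0.130 CPM in control (SD, n = 3 each). It was lower with PRGL493, by edgeR's quasi-likelihood test (log2 fold change -0.51, SE 0.13, adjusted p = 0.0052), and all 3 PRGL493 libraries lay below all 3 controls. MRPS31 itself, a small-subunit gene, fell by 0.24 on the log2 scale (adjusted p = 0.015), and how reads are split between the 2 loci is not given. MRPS36, the subunit of the 2-oxoglutarate dehydrogenase complex, had 12.6, 14.6 and 15.1 CPM in knockdown cells and 13.1, 10.3 and 14.1 CPM with PRGL493, against 12.2, 11.5 and 13.1 CPM in control, with overlap between all groups.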
